A study of Mus musculus with 6 samples.

Results

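The cathepsins are the main proteases of the lysosome, and 10 of their genes, Ctsa, Ctsb, Ctsc, Ctsd, Ctsf, Ctsh, Ctsk, Ctsl, Ctss and Ctsz, were followed here in mouse hearts infused with angiotensin II (Ang II). They were chosen by gene symbol and are 10 of the 30914 genes in the table. The hearts came from male wild-type C57BL/6J mice, 8 weeks old at the start, that received Ang II at 1 μg/kg/min from osmotic pumps for 4 weeks. In the Ang II + Tec group (3 mice) tectochrysin (Tec), a plant flavone, was given at 5 mg/kg in the final 2 weeks, and the Ang II group (3 mice) received Ang II without Tec. All 6 mice were infused with Ang II and no uninfused heart was analysed here, so the comparison shows the addition of Tec and not the response to Ang II.

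Cathepsins are made as inactive proenzymes, carried to the lysosome by mannose 6-phosphate receptors and activated in its acid interior, where they degrade proteins delivered by endocytosis, phagocytosis and autophagy. Most are cysteine proteases of the papain type, while cathepsin D is an aspartic protease and cathepsin A a serine carboxypeptidase. Some act in every cell, and others, such as cathepsin S and cathepsin K, are best known from macrophages, antigen-presenting cells and osteoclasts, and can degrade extracellular matrix when secreted. Lysosomal genes are targets of the transcription factor TFEB, which binds the letters CACGTG within the CLEAR element, and myeloid genes are targets of PU.1, encoded by Spi1, which binds sites with the core GAGGAA.

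Promoter sequences of 8 of the 10 genes were matched in RefSeq on GRCm38.p6 (Ctsb and Ctsh were not matched). The letters CACGTG, which read the same on both strands, stood within 250 bases before to 50 bases after a start of 4 of the 8 genes (Ctsa, Ctsd, Ctsf and Ctsl), against 8.09% of 27025 genes with such a window. The letters GAGGAAGT, searched on both strands and read as ACTTCCTC on the other, stood in 2 of the 8 (Ctsc and Ctss), against 3.69% of all genes. These motifs were chosen after the sequences and the expression values had been seen, and a match is a description of the letters, not a binding site. Ctsd and Ctsa are shown as windows with CACGTG, and Ctss and Ctsc because they are the members whose groups did not overlap in expression. Each stretch runs 5′ to 3′ on the strand of its gene, from 170 bases before the start, with the motif in capitals. They lie at chr7:142387816-142387997 on the minus strand (Ctsd), chr2:164833603-164833784 on the plus strand (Ctsa, the second of its listed starts), chr3:95526616-95526797 on the plus strand (Ctss) and chr7:88277915-88278096 on the plus strand (Ctsc).
Ctsd: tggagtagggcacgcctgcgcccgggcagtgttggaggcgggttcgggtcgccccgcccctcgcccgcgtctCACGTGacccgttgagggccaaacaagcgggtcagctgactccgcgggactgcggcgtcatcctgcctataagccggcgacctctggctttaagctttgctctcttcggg
Ctsa: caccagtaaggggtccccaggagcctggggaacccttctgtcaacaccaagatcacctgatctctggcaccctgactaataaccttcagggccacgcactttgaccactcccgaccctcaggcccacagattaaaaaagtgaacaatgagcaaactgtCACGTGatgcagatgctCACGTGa
Ctss: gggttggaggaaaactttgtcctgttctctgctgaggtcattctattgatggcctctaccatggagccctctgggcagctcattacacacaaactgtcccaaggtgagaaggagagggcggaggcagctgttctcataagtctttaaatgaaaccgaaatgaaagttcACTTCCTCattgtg
Ctsc: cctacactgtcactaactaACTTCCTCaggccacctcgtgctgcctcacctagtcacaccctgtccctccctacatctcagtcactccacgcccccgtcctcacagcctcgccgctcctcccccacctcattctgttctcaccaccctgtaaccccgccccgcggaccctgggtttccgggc
The Ctsa stretch held CACGTG at 2 places, both near the start, and the Ctss motif spanned the start itself. Ctsd also held CACGTG at 2 places of its window, 1 of them farther from the start than the stretch printed. The window at the first listed start of Ctsa held 0 matches. The Ctsd and Ctsa stretches lie within the gene coordinates given below, so their bases before the start are not outside the gene models.

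Expression was given as FPKM, fragments scaled by transcript length and by the mapped fragments of the library, so levels of different genes can be compared per length. FPKM keep no read totals, and the depth of the libraries in reads is unknown. The sums of FPKM ranged from 516699 to 629989 per library. The mitochondrial genome took 41.3%, 40.1% and 48.9% of them in Ang II replicates 1 to 3. In those of Ang II + Tec it took 51.3%, 49.6% and 52.5%, so this share did not overlap between the groups. The libraries differed in atrial transcripts in a way the groups do not explain: Myl7, the atrial myosin light chain, was at 419 and 332 FPKM in Ang II replicates 1 and 2 and at 1040 FPKM in Ang II + Tec replicate 2. In the other 3 libraries Myl7 was between 0 and 1.58 FPKM. The library labelled Ang II replicate 3 stood apart from its group: for 74.9% of the 13089 genes tested it was nearer, on log2(FPKM + 1), to the mean of the Ang II + Tec libraries than to that of Ang II replicates 1 and 2. The corresponding share was 19.8% for Ang II replicate 1, 23.7% for Ang II replicate 2 and 54.1% for Ang II + Tec replicate 2. Among the cathepsins, 10 of 10 were nearer to the Ang II + Tec mean in Ang II replicate 3. Its label was used as given, whether it is right was not tested, and each group difference rests on it. The cardiomyocyte markers Mb, Actc1 and Myl2 were between 1227 and 6502 FPKM in every library, as the tissue label says.

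All 10 cathepsin genes were detected in every library and passed the filter on low values (at least 0.5 FPKM in 3 libraries), which 13089 genes of the table passed. Ctsd was the highest in all 6 libraries and Ctsb the second, and per length Ctsd alone made up 64.5% to 74.8% of the summed FPKM of the family. In the Ang II group, means then declined from Ctsz (29.5 FPKM) through Ctsa (25.0), Ctss (22.5), Ctsl (19.0), Ctsk (15.1), Ctsh (11.6) and Ctsc (9.77) to Ctsf (6.99 FPKM). SDs in that group were 13.8 for Ctsz, 12.5 for Ctss and 11.5 FPKM for Ctsk. Neighbours in this order from Ctsz downwards did not differ beyond their spread between mice. Within each Ang II library, Ctsl lay above Ctsk and Ctsh above Ctsc. The order below Ctsb was another one in hearts that received Tec: Ctsa (19.2 FPKM), Ctsl (16.2), Ctsz (14.7), Ctss (8.29), Ctsf (6.91), Ctsh (6.75), Ctsc (4.50) and Ctsk (3.00 FPKM). There Ctsz lay above Ctss, Ctsh above Ctsc and Ctsc above Ctsk without overlap, and the other neighbours below Ctsa overlapped between mice. Within each Ang II + Tec library, Ctsa, Ctsl, Ctsz and Ctss nevertheless stood in that order and above Ctsf. Ctsk, seventh by level in Ang II replicates 1 and 2, was the lowest of the 10 in Ang II replicate 3 and in every Ang II + Tec library. Below Ctsb, Ang II replicate 3 had the order of the Ang II + Tec means, except that Ctsz lay above Ctsl. The order of the Ang II means was thus that of Ang II replicate 1, and of replicate 2 except that Ctss lay above Ctsa. It was not that of all hearts without Tec.

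**Figure D1:**
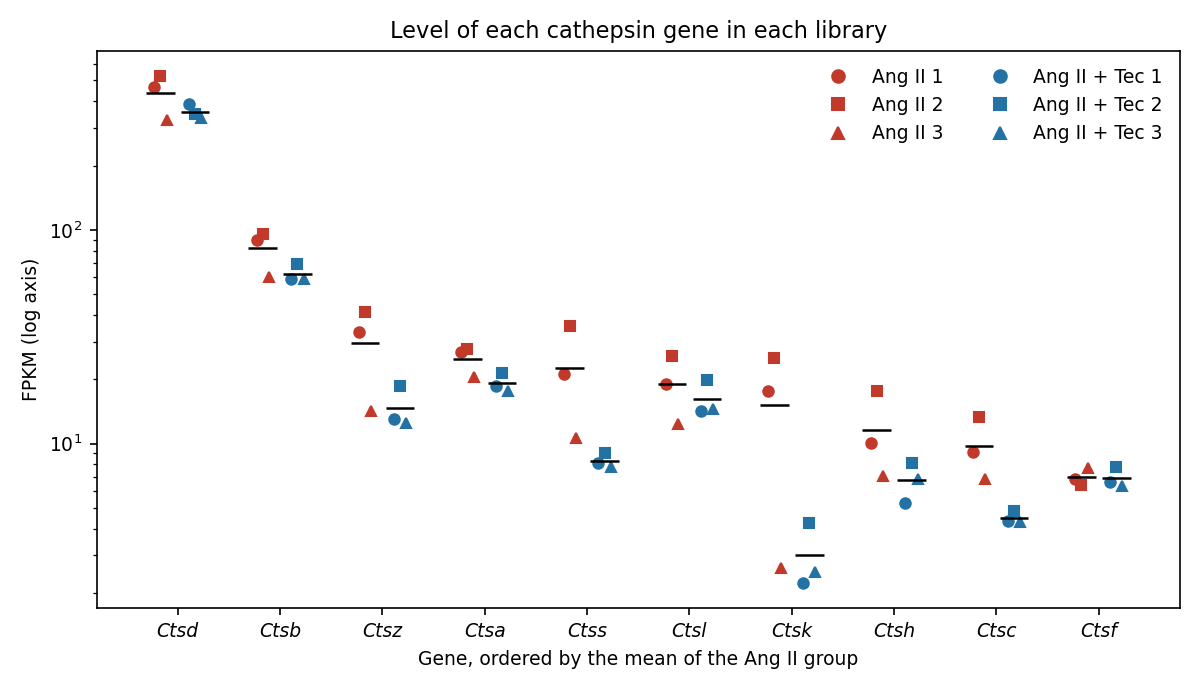
FPKM (log axis) of each cathepsin gene, ordered by the mean of the Ang II group, with 1 point per library (red, Ang II; blue, Ang II + Tec; circle, square and triangle for replicates 1, 2 and 3) and a bar at each group mean (n = 3). For Ctss and Ctsc the red and blue points do not overlap, while for Ctsk Ang II replicate 3 lies among the blue points.

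The comparison of the 2 groups asks how the transcripts of the family differed when Tec was added to Ang II. The mean of each of the 10 genes was lower with Tec, by amounts that ran from Ctsk, at 19.8% of its mean FPKM in the Ang II group, to Ctsf, at 98.9%. No cathepsin gene passed the threshold across all genes, a log2 fold change of 1 or more in either direction with an adjusted p under 0.05 (limma, Benjamini-Hochberg), which 21 of the 13089 genes tested passed (0.16%). At an unadjusted p under 0.05, 4 of the 10 were lower (Ctsa, Ctsc, Ctsk and Ctss), against 16.5% of all genes, and 0 were higher. The FPKM of the groups did not overlap for 2 of the 10 (Ctsc and Ctss), both lower, against 18.9% of all genes. Lower means were common among all genes (80.0%), so the 10 of 10 is to be read against that share. The median log2 fold change was -0.50 over the 10 genes and -0.17 over all genes tested.

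The general shift depended on the scaling of the libraries. After scaling by the median of ratios, the median of all genes was 0.0087, and 48.2% of all genes had lower means, 7.90% were lower at an unadjusted p under 0.05 and 10.6% did not overlap with lower values. The median of the 10 cathepsin genes was then -0.27, and 8 of them had lower means, since Ctsl (0.054) and Ctsf (0.20) turned to small positive log2 fold changes. Ctsk (-1.42), Ctss (-0.96), Ctsc (-0.71), Ctsz (-0.62) and Ctsh (-0.41) were again the 5 with the most negative log2 fold changes, while Ctsa, Ctsb and Ctsd were between -0.13 and -0.029. At an unadjusted p under 0.05, 2 of the 10 (Ctsc and Ctss) were then lower, and 3 (Ctsa, Ctsc and Ctss) did not overlap, against the 7.90% and 10.6% of all genes. In whole tissue, fewer cells of a type and less RNA per cell cannot be told apart. For any 1 gene, exact permutation of 3 mice and 3 mice has 0.1 as its smallest two-sided p. The p-values of limma can go lower because they assume normally distributed residuals, with a spread moderated by that of all genes.

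**Figure D2:**
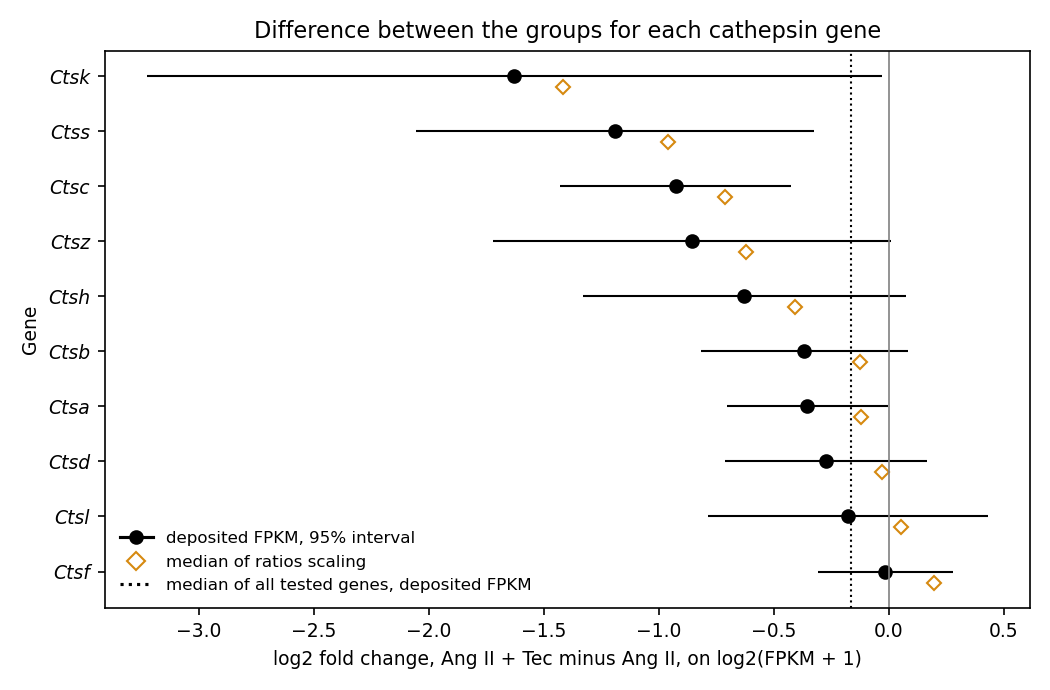
Log2 fold change of each cathepsin gene (Ang II + Tec minus Ang II, on log2(FPKM + 1); n = 3 per group), with black points and lines for the deposited FPKM with the 95% confidence interval of the fit and open diamonds for the values after median of ratios scaling. The dotted line marks the median of all tested genes for the deposited FPKM, -0.17, and not that after median of ratios scaling, 0.0087. Ctsk, Ctss, Ctsc, Ctsz and Ctsh lie farthest to the left on either scaling.

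Shares within a library do not depend on its scaling. Ctss made up 3.04%, 4.37% and 2.27% of the summed cathepsin FPKM in Ang II replicates 1 to 3, and 1.56%, 1.77% and 1.67% in those of Ang II + Tec. For Ctsc the shares were 1.31%, 1.64% and 1.46% against 0.834%, 0.951% and 0.929%. Of the 10 shares, those of Ctss and Ctsc were the 2 that did not overlap between the groups. These are the same 2 genes whose FPKM did not overlap, so the shares are not a separate result. Among all genes, 18.9% had lower FPKM without overlap, and shares of a family were not computed for other genes. The share of Ctsd was 66.5%, 64.5% and 69.8% with Ang II alone and 74.8%, 68.0% and 71.8% with Tec, so these ranges overlapped. The summed FPKM of the family itself was 699, 813 and 470 against 519, 511 and 465, and Ang II replicate 3 lay within the range of the Ang II + Tec libraries.

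Ctsd (ENSMUSG00000007891, chr7:142375911-142388038, minus strand), the aspartic protease and a main endopeptidase of the lysosome, was at 465, 524 and 328 FPKM in Ang II replicates 1 to 3. Its levels in Ang II + Tec replicates 1 to 3 were 388, 347 and 334 FPKM. Ang II replicate 3 was the lowest of all 6 libraries, and the groups overlapped. Their means were 439 ± 101 and 357 ± 28.1 FPKM (SD, n = 3 each), and the log2 fold change of -0.27 (SE 0.19) did not pass the test (adjusted p = 0.412).

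Ctsa (ENSMUSG00000017760, chr2:164832873-164840019, plus strand) encodes the carboxypeptidase, also called protective protein, that holds beta-galactosidase and neuraminidase in a stable complex. Its levels were 26.7, 27.8 and 20.4 FPKM in the Ang II group and 18.6, 21.4 and 17.6 FPKM with Tec. One pair overlapped, since Ang II replicate 3 was lower than Ang II + Tec replicate 2. The log2 fold change was -0.36 (SE 0.15, unadjusted p = 0.0473, adjusted p = 0.266), and after median of ratios scaling it was -0.12. Ctsa is also the one member that the table annotates to the renin-angiotensin system, beside the lysosome term of KEGG that all 10 carry.

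Among the cysteine cathepsins, Ctsb (ENSMUSG00000021939, chr14:63122462-63145923, plus strand), an endopeptidase that also removes dipeptides from the carboxyl end, was at 90.05, 96.1 and 60.05 FPKM with Ang II alone and at 58.7, 69.4 and 58.6 FPKM with Tec. The high values were those of Ang II replicates 1 and 2, and Ang II replicate 3 lay between those of the Ang II + Tec group (log2 fold change -0.37, SE 0.19, adjusted p = 0.322). Ctsb and Ctsa had the most similar profiles of any pair in the family, with a root mean square difference of 0.079 between their centred log2 values over the 6 libraries.

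Ctsl (ENSMUSG00000021477, chr13:64359337-64370890, minus strand), a broad lysosomal endopeptidase known to be needed for a normal myocardium in mice, was at 19.0, 25.6 and 12.3 FPKM with Ang II alone. With Tec the levels were 14.2, 19.9 and 14.5 FPKM. Ang II replicate 3 was the lowest and Ang II replicate 2 the highest of the 6, and the log2 fold change of -0.18 (SE 0.26, adjusted p = 0.684, 95% interval -0.79 to 0.43) was close to the median of all genes.

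Ctsf (ENSMUSG00000083282, chr19:4855130-4860918, plus strand), a cysteine cathepsin with a long propeptide, varied least. It was at 6.86, 6.41 and 7.69 FPKM with Ang II alone and at 6.59, 7.80 and 6.33 FPKM with Tec, and its highest value was 1.23 times its lowest. The groups overlapped fully, and the 95% interval of the log2 fold change of -0.016 ran from -0.31 to 0.28 (SE 0.12, adjusted p = 0.945).

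Ctsz (ENSMUSG00000016256, chr2:174427493-174439039, minus strand), also called cathepsin X, removes single residues from the carboxyl end. Its levels were 33.3, 41.1 and 14.2 FPKM in the Ang II group against 13.0, 18.6 and 12.5 FPKM, so the Ang II + Tec mean was 49.8% of that of the Ang II group. Ang II replicate 3 was lower than Ang II + Tec replicate 2, and the log2 fold change of -0.86 (SE 0.37) had an unadjusted p of 0.0521 and an adjusted p of 0.271.

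Ctsh (ENSMUSG00000032359, chr9:90054152-90076089, plus strand), mainly an aminopeptidase, was at 10.1, 17.5 and 7.07 FPKM with Ang II alone and at 5.30, 8.09 and 6.85 FPKM with Tec. One library, Ang II replicate 2, stood above the rest, and the groups overlapped at Ang II replicate 3. On the log2 scale the difference was -0.63 (SE 0.30, adjusted p = 0.296).

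Ctss (ENSMUSG00000038642, chr3:95526786-95556403, plus strand) encodes the protease that completes the cleavage of the invariant chain in antigen-presenting cells. Its levels were 21.3, 35.5 and 10.7 FPKM in the Ang II group and 8.08, 9.02 and 7.76 FPKM with Tec. Every Ang II library was above every Ang II + Tec library, with the smallest gap between Ang II replicate 3 and Ang II + Tec replicate 2. The spread was much wider without Tec, with means of 22.5 ± 12.5 and 8.29 ± 0.655 FPKM (SD, n = 3 each). The log2 fold change was -1.19 (SE 0.37, 95% interval -2.06 to -0.33), with an unadjusted p of 0.0138 that did not hold after adjustment (limma, adjusted p = 0.221).

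Ctsc (ENSMUSG00000030560, chr7:88278085-88310888, plus strand), the dipeptidyl peptidase that activates the serine proteases of granulocytes, mast cells and cytotoxic lymphocytes, was at 9.13, 13.4 and 6.84 FPKM with Ang II alone. With Tec the levels were 4.33, 4.86 and 4.32 FPKM, all below the lowest Ang II library. The means were 9.77 ± 3.30 and 4.50 ± 0.309 FPKM (SD, n = 3 each). Its log2 fold change of -0.93 (SE 0.21, 95% interval -1.43 to -0.43) had the smallest unadjusted p of the family, 0.00315, and an adjusted p of 0.188.

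Ctsk (ENSMUSG00000028111, chr3:95499256-95509362, plus strand), the collagen-degrading cathepsin of osteoclasts, lies beside Ctss on chromosome 3. It was at 17.7 and 25.2 FPKM in Ang II replicates 1 and 2 but at 2.61 FPKM in Ang II replicate 3, against 2.24, 4.27 and 2.50 FPKM with Tec. Thus 2 libraries were high, and the third Ang II library lay within the range of the Ang II + Tec libraries. The highest of the 6 values was 11.2 times the lowest, the widest range of the family. The log2 fold change of -1.63, the most negative of the 10, had an SE of 0.68 and a 95% interval of -3.23 to -0.030 (unadjusted p = 0.0468, adjusted p = 0.265).

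Of the other cathepsin symbols, Ctso was the one with levels above the filter, at 5.09, 6.15 and 3.83 FPKM in the Ang II group and 3.30, 4.62 and 3.10 FPKM with Tec (log2 fold change -0.36, SE 0.19, adjusted p = 0.322). Ctsw, a cathepsin of cytotoxic lymphocytes, was at most 0.40 FPKM, and Ctse and Ctsj were listed at 0 in all 6 libraries.

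Gene models on the other strand overlap 5 members, among them Neurl2 and Pltp at Ctsa, Fdft1 at Ctsb and Nelfcd at Ctsz, and whether fragments were counted by strand is not given in the sources used here. These 4 neighbours were at most 10.8 FPKM, against at least 12.5 FPKM for the cathepsin beside them. Ctsf, Ctsh and Ctsk overlap no other gene model.

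Centred on the mean of each gene, 9 of the 10 profiles had positive values in Ang II replicates 1 and 2, Ctsf being the exception. In Ang II replicate 3 the centred values were negative for all but Ctsc (0.049) and Ctsf (0.13). The mean centred profile of the family was 0.45, 0.79 and -0.27 on the log2 scale in Ang II replicates 1 to 3, and -0.42, -0.13 and -0.42 in those of Ang II + Tec. The most unlike pair was Ctsk and Ctsf, with a root mean square difference of 1.25. Outside the family, the 5 genes nearest to this mean profile over the 6 libraries were Cnpy2 (root mean square difference 0.026), Ssr1 (0.030), Sphk1 (0.040), Slc39a11 (0.044) and Rap1b (0.045), a closeness in profile that says nothing of shared function. Cnpy2, for example, was at 21.6, 26.1 and 12.2 FPKM against 11.1, 13.8 and 11.3 FPKM.

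**Figure D3:**
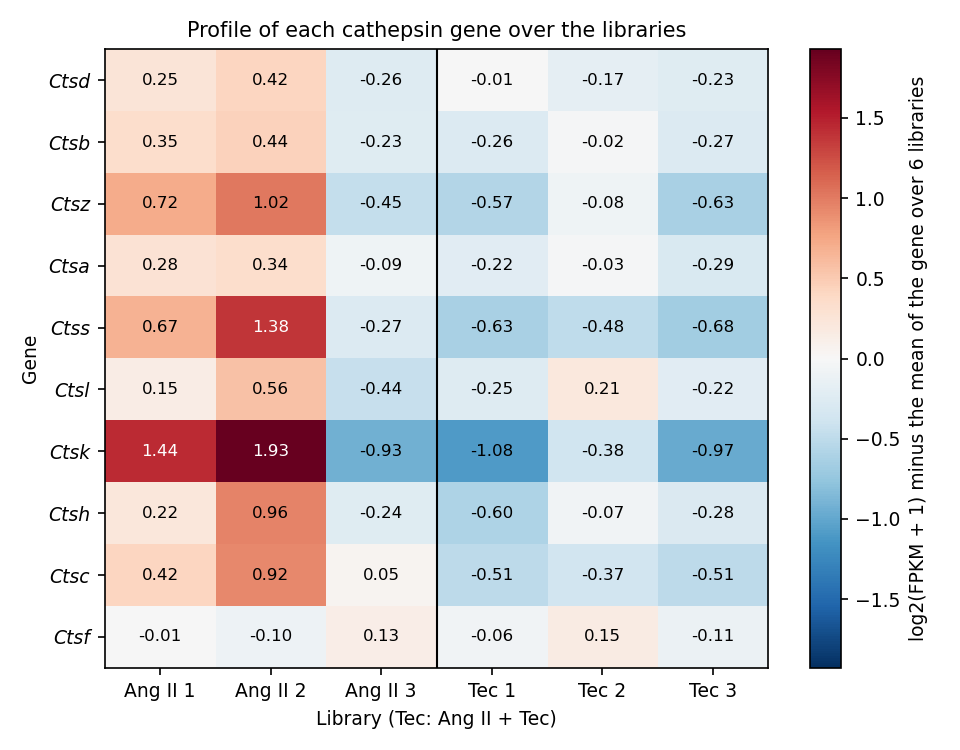
Centred profile of each cathepsin gene, as log2(FPKM + 1) minus its mean over the 6 libraries, with genes in rows ordered by the mean of the Ang II group, libraries in columns and a line between the groups (red above the mean, blue below it). Ctsk reaches 1.93 in Ang II replicate 2 and -1.08 in Ang II + Tec replicate 1, whereas Ctsf stays between -0.11 and 0.15.

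Markers of macrophages and fibroblasts had lower means with Tec, as these genes did. The counts of this list and of those below are to be read against all genes tested. Of these, 80.0% had lower means (48.2% after median of ratios scaling). At an unadjusted p under 0.05, 16.5% were lower, and 18.9% were lower without overlap. The 16 macrophage markers summed to 396, 601 and 308 FPKM in the Ang II group and to 208, 209 and 228 FPKM with Tec, without overlap and with no marker at 0 in all libraries. Of 15 tested, 15 had lower means (13 after median of ratios scaling), 13 were lower at an unadjusted p under 0.05 and 10 did not overlap, with 0 past the adjusted threshold. The complement gene C1qa, for example, was at 67.9, 82.5 and 47.4 FPKM against 26.3, 28.1 and 32.3 FPKM (log2 fold change -1.13, SE 0.20, adjusted p = 0.154), with -1.14 for C1qb and -0.84 for Lyz2. Relative to the marker sum, Ctsc was at 2.30%, 2.22% and 2.22% in the Ang II group and at 2.08%, 2.32% and 1.90% with Tec, so that this ratio overlapped. For Ctss the same ratio was 5.36%, 5.92% and 3.46% against 3.88%, 4.31% and 3.41%, also with overlap. The part of macrophage markers in the cathepsin result was not tested.

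The 10 fibroblast markers summed to 781, 1036 and 176 FPKM in the Ang II group against 145, 238 and 159 FPKM, and as for Ctsk, Ang II replicate 3 lay within the range of the Ang II + Tec group. All 10 had lower means (9 after quantile normalization), 6 at an unadjusted p under 0.05, with a median log2 fold change of -1.23. Col3a1 (-2.72) and Lum (-1.65) were among them, and Dcn was at 194, 205 and 82.9 FPKM against 81.6, 134 and 95.4 FPKM. Ctsk was at 2.26%, 2.43% and 1.49% of the marker sum in the Ang II group and at 1.55%, 1.80% and 1.57% with Tec, so the ratio overlapped. Ang II replicate 2 was the highest library for the sums of both lists and for Ctss, Ctsc and Ctsk. The part of fibroblast markers was not tested either.

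**Figure D4:**
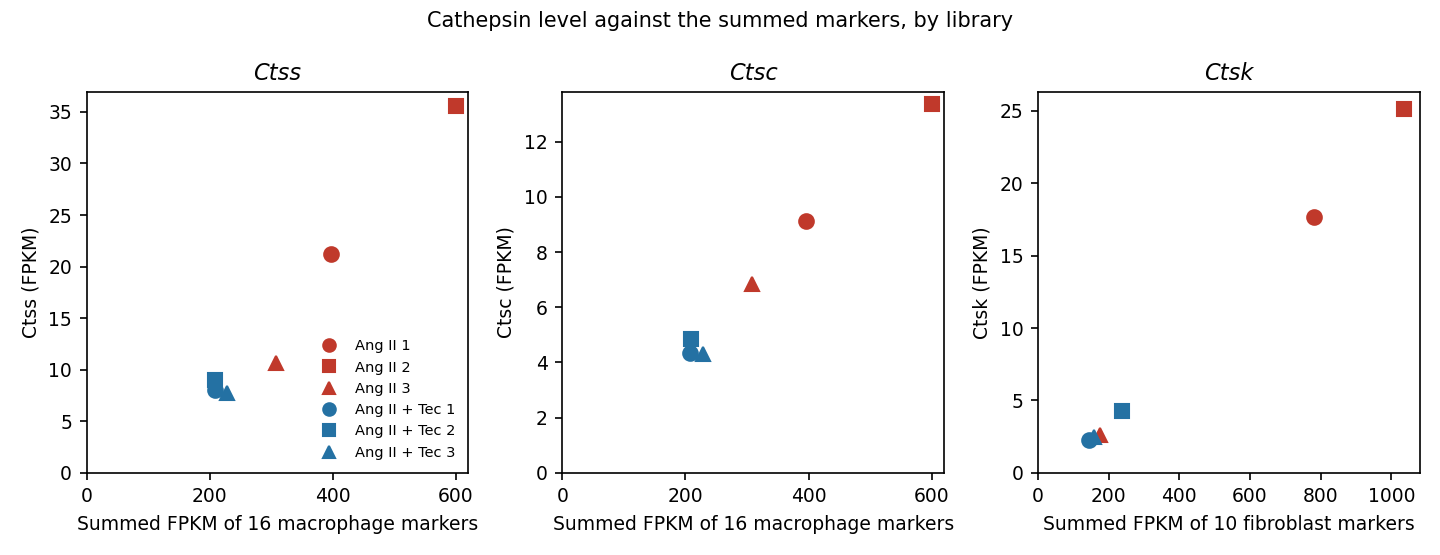
FPKM of Ctss and Ctsc against the summed FPKM of 16 macrophage markers, and of Ctsk against that of 10 fibroblast markers, with 1 point per library (red, Ang II; blue, Ang II + Tec; circle, square and triangle for replicates 1, 2 and 3). Ang II replicates 1 and 2 lie at the upper right of each panel, and for Ctsk Ang II replicate 3 (176 FPKM of markers, 2.61 FPKM of Ctsk) falls among the Ang II + Tec libraries.

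Other marker sums overlapped between the groups. Of 10 cardiomyocyte markers, 7 had higher means with Tec, with a median log2 fold change of 0.16 (-0.018 after quantile normalization). Higher means were found for 1 of 7 endothelial markers and 1 of 6 smooth muscle markers. They ranged from 13935 to 17966 FPKM for cardiomyocyte markers in the Ang II group against 15917 to 17241 FPKM, from 82.6 to 91.4 against 75.1 to 83.2 FPKM for endothelial markers, and from 214 to 448 against 168 to 334 FPKM for smooth muscle markers. Neutrophil markers summed to at most 3.24 FPKM, with Ly6g and Mpo listed at 0 in every library. T and NK cell markers reached at most 2.82 FPKM and B cell markers 0.72 FPKM, so the defining transcripts of granulocytes and lymphocytes were near 0. Atrial markers summed to between 256 and 10253 FPKM in the Ang II group and between 128 and 5056 FPKM with Tec.

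Of a list of protease inhibitors, 5 of 11 genes were tested and 5 had lower means, 2 at an unadjusted p under 0.05. The list held cystatins and also serpins, and whether the serpins act on the 10 members was not examined. Cystatin C (Cst3), the main secreted inhibitor of cysteine cathepsins, was per length at a level near that of Ctsd, at 541, 659 and 307 FPKM in the Ang II group and 270, 297 and 283 FPKM with Tec. The groups did not overlap, and the log2 fold change was -0.76 (SE 0.27, adjusted p = 0.232). The ratio of Cst3 to the summed 8 cysteine cathepsins was 2.61, 2.53 and 2.53 with Ang II alone and 2.40, 2.09 and 2.50 with Tec, which did not overlap although the closest values differed little. Serpina3n, a serpin induced in inflammation, was at 35.1, 73.9 and 5.54 FPKM against 3.39, 5.96 and 4.48 FPKM (log2 fold change -2.24, SE 0.79, adjusted p = 0.232), with overlap at Ang II replicate 3. Serpinb6a was at 18.7, 22.7 and 9.77 FPKM against 12.6, 14.5 and 11.9 FPKM, which did not pass the test.

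Among 15 genes of processing and sorting, 14 had lower means (7 after median of ratios scaling) and 2 were lower at an unadjusted p under 0.05. These were Lgmn, the asparaginyl endopeptidase that converts single-chain cathepsins to their 2-chain forms, and Grn, whose product progranulin is cleaved by cathepsins. Lgmn was at 41.1, 48.9 and 26.3 FPKM against 22.7, 25.5 and 21.3 FPKM, without overlap (log2 fold change -0.68, SE 0.22, adjusted p = 0.226). Psap, the saposin precursor that cathepsin D cleaves, was between 242 and 250 FPKM in the Ang II group and between 249 and 285 FPKM with Tec.

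The medians of the other lysosomal lists lay nearer to that of all genes. Of 29 other hydrolases, 27 had lower means (21 after median of ratios scaling), 9 at an unadjusted p under 0.05, with a median log2 fold change of -0.33. Smpd1, the acid sphingomyelinase, was at 50.7, 45.7 and 37.6 FPKM against 34.5, 36.2 and 33.2 FPKM, without overlap (-0.35, SE 0.13, adjusted p = 0.248), and Hexa was at 36.9, 44.1 and 21.4 against 22.3, 25.6 and 21.3 FPKM. For the 17 subunits of the proton pump, which acidifies the lysosome, 17 had lower means (11 after median of ratios scaling), with a median of -0.28. Atp6v1g1 was at 82.7, 81.6 and 71.7 FPKM against 63.4, 58.3 and 62.0 FPKM (-0.35, SE 0.11, adjusted p = 0.221), the log2 fold change of Atp6v0b was -0.46 (SE 0.16), and Atp6ap1 was between 34.0 and 53.6 FPKM in the 6 libraries.

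Of 12 lysosomal membrane proteins, 11 had lower means (7 after median of ratios scaling), 2 at an unadjusted p under 0.05, with a median of -0.30. The structural protein Lamp1 was at 198, 221 and 144 FPKM against 148, 161 and 146 FPKM, and Laptm4a and Cd63 likewise overlapped between the groups. Over the 100 other tested genes that the table annotates to the lysosome in KEGG, the median was -0.26. Of these genes, 90 had lower means (80.0% of all genes), 19 were lower at an unadjusted p under 0.05 (16.5%) and 15 were lower without overlap (18.9%). None of these lists held a gene past the adjusted threshold, at which limma gave 0 calls, and their medians of -0.20 to -0.33 for processing, hydrolases, pump and membrane compare with -0.50 for the cathepsins and -0.17 for all genes.

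Substrates and partners of the cathepsins went in both directions: 9 of 14 had lower means (7 after median of ratios scaling), 4 at an unadjusted p under 0.05. Col1a1, a collagen chain that cathepsin K degrades and also one of the fibroblast markers, was at 82.7, 100.4 and 7.09 FPKM against 4.20, 8.06 and 3.83 FPKM (log2 fold change -2.75, SE 0.90, adjusted p = 0.228), with 2 high libraries as for Ctsk. Cd74, the invariant chain that cathepsin S cleaves, was at 41.4, 46.5 and 20.9 FPKM against 37.5, 41.2 and 49.2 FPKM, so the groups overlapped. Of 8 transcription factors tested, 7 had lower means (3 after median of ratios scaling), and Mitf, Cebpa and Cebpb overlapped between the groups. Spi1, named here after its values had been seen, was at 2.28, 3.03 and 1.67 FPKM against 1.24, 1.35 and 0.97 FPKM, without overlap (-0.59, SE 0.17, adjusted p = 0.218).

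The count of cathepsins that passed depended on the library labelled Ang II replicate 3. Without Ang II replicate 3, 4 of the 10 passed the threshold (Ctsc, Ctsk, Ctss and Ctsz), when 557 of all genes did (4.26%), and 8 of the 10 did not overlap between the groups, when 53.7% of all genes were lower without overlap. The log2 fold changes were then -2.50 for Ctsk (adjusted p = 0.0018), -1.62 for Ctss (adjusted p = 0.00376), -1.13 for Ctsc and -1.30 for Ctsz (adjusted p = 0.00557 for both). Without Ang II replicate 2, in contrast, the values were -1.07, -0.80, -0.70 and -0.56, and 0 of the 10 passed. Without Ang II + Tec replicate 2, 7 did not overlap, against 44.3% of all genes that were lower without overlap.

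The 2 Ang II libraries with atrial transcripts were also the 2 with the higher levels of every member but Ctsf. Between the libraries with Myl7 above 100 FPKM (Ang II replicates 1 and 2 against Ang II + Tec replicate 2), the log2 fold changes were -2.07 for Ctsk, -1.51 for Ctss, -1.04 for Ctsc and -0.95 for Ctsz, with a median of -0.58 over the 10 genes. Between the libraries without them (Ang II replicate 3 against Ang II + Tec replicates 1 and 3) they were -0.10, -0.39, -0.56 and -0.15, with a median of -0.16. Lower means with Tec were found for 9 of the 10 genes in the first set, against 68.0% of all genes (median -0.13), and 8 in the second, against 69.6% (median -0.078), and with 1 library on one side no test was made. These sets were formed after seeing the data, and the part of atrial tissue in the result was not tested.

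**Figure D5:**
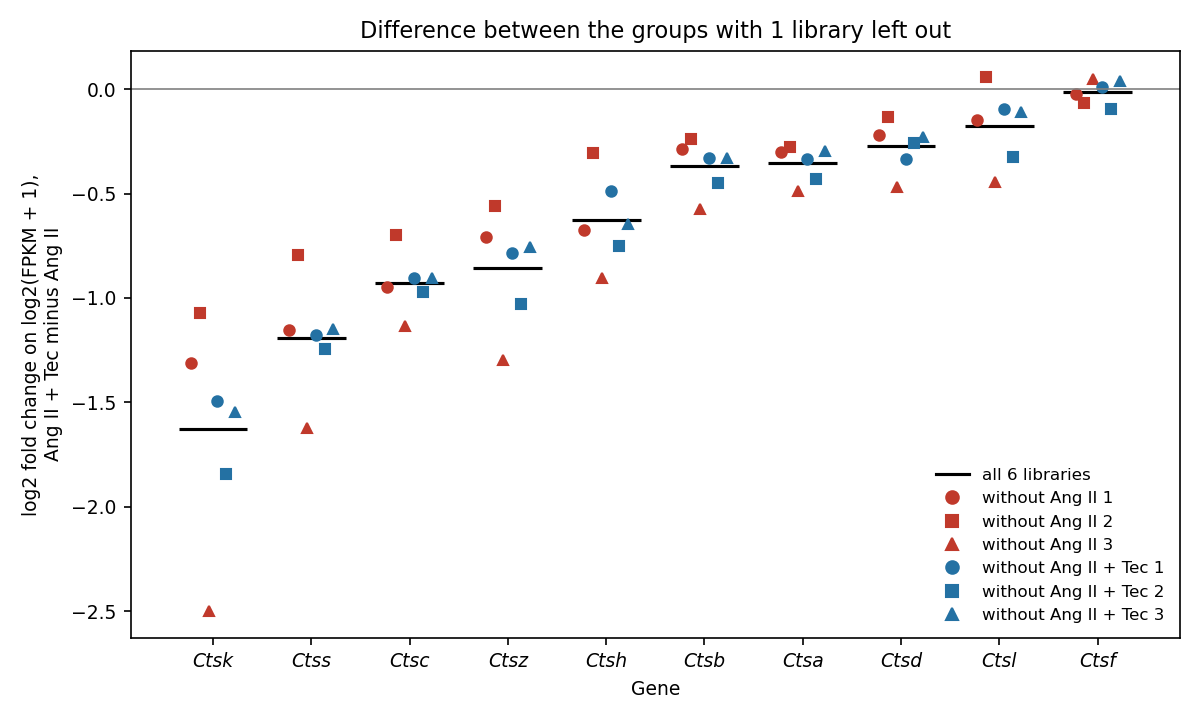
Log2 fold change of each cathepsin gene on log2(FPKM + 1), Ang II + Tec minus Ang II, over all 6 libraries (black bar) and with each library left out in turn (red, an Ang II library; blue, an Ang II + Tec library; circle, square and triangle for replicates 1, 2 and 3). For Ctsk the lowest value, -2.50, is the one without Ang II replicate 3 and the highest, -1.07, that without Ang II replicate 2, while for Ctsf they stay between -0.095 and 0.046.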

How the data were processed

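RNA of 3 Ang II and 3 Ang II + Tec hearts was sequenced, with poly(A) selection and paired ends. Adapters and poor bases were removed by the authors with Cutadapt, quality was checked with FastQC, and FPKM per gene and library were deposited. The submitters' processing notes name Bowtie 0.12.2, HISAT2 2.0, StringTie 1.3.0 and the build mm8, without their order, whereas the deposited coordinates are those of GRCm38 (GENCODE M21) for 27947 of 30832 shared genes (90.6%), 9 of the 10 cathepsins included. Coordinates are therefore given on GRCm38.

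FPKM are not counts, and no read depth or counting interval could be given. In R 4.3.3, limma 3.58.1 was fitted to log2(FPKM + 1), with a trend of the variance and no covariate, over the 13089 genes with at least 0.5 FPKM in at least 3 libraries, with Benjamini-Hochberg adjustment over them. This scale understates the fold change of low genes. A call needed a log2 fold change of 1 or more in either direction and an adjusted p under 0.05. The fit was also run on simulated data with independent noise for each gene and library. Such data lack the differences between whole libraries described above, so they cannot show how the fit behaves here. Replicates are mice, as far as the labels show. The p-values set the group difference against the spread between these libraries, moderated by the spread of all genes. Tables were handled in Python 3.11.15 with pandas 2.3.3, and plots drawn with matplotlib 3.10.9.

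The members, gene lists and tests were chosen with earlier results of these data known. Named are the 10 members, other cathepsin symbols, the 3 tested genes of each list with the highest mean FPKM, those lists' other genes where said, and the 5 nearest profiles. Alternatives changed the pseudocount, filter, scaling, replicate block, variance trend and library weights, and left out each library. The sets with and without atrial transcripts (Myl7 above 100 FPKM), and the overlap counts without each library, were added after seeing the data. The columns that annotate genes were used for KEGG terms only.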

Additional observations from a re-analysis of the deposited data

How the results depend on the processing

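The alternatives left Ctsa, Ctsb, Ctsc, Ctsh, Ctsk, Ctss and Ctsz with negative log2 fold changes throughout. For Ctsd the sign turned within the libraries without atrial transcripts (0.14). Ctsl turned under median of ratios scaling (0.054), quantile normalization (0.051), without Ang II replicate 2 (0.056; -0.44 to 0.056 over the left-out libraries) and within the libraries without atrial transcripts (0.20). Ctsf turned under median of ratios scaling (0.20), quantile normalization (0.20), equal sums outside the mitochondrial genome (0.013), without Ang II replicate 3 (0.046), Ang II + Tec replicate 1 (0.011) or replicate 3 (0.036; -0.095 to 0.046 over the left-out libraries), and within the libraries with atrial transcripts (0.21). The cause was not tested. The 21 genes that passed the threshold became 3 with no filter, 522 with library weights and 2 to 557 with 1 library left out. The count of cathepsins past it, 0, became 5 with library weights (of which the estimate did not fully converge) and 0 to 4 with 1 library left out. At an unadjusted p under 0.05 the 4 cathepsins (16.5% of all genes lower) became 2 under median of ratios scaling (7.90%) and under quantile normalization (7.85%), 9 with library weights (42.3%) and 2 to 9 with 1 library left out (6.29% to 39.3%, the highest of both without Ang II replicate 3). The 2 genes without overlap became 3 under median of ratios scaling and 2 to 8 with 1 library left out. Of all genes, 18.9% were lower without overlap, against 10.6% under that scaling and 19.9% to 53.7% with 1 library left out. With the replicate number as a block (replicate block), 7 of the cathepsins had an unadjusted p under 0.05, against 22.9% of all genes that were lower, with 0 past the threshold, and 22 genes passed in all. Libraries with the same number did not deviate together in every pair (correlations -0.039, 0.43 and 0.38). Ang II replicates 2 and 3 correlated best with the library of their own number, and Ang II replicate 1 did not. With 3 libraries per group this cannot decide whether the numbers pair the samples, and the labels do not say that they do. FPKM give no read depth, so the precision of the low genes is known from the spread between mice alone.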
